A study of Mus musculus with 2 samples.

Results

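The p53 genes described here are Trp53, which encodes the transcription factor p53, and 9 genes that p53 is known to activate: Mdm2, Ccng1, Plk2, Pmaip1, Phlda3, Trp53inp1, Sesn1, Zmat3 and Aen. They were chosen by name, and every transcript row that the array annotation gives to one of these names was taken. This gave 17 of 44170 transcript rows, for 9 of the 24203 genes measured; Zmat3 was not analysed here. Expression had been measured on 2 single-colour NimbleGen arrays. The RNA came from bone marrow of C57BL/6 mice, 8 weeks of age, after sorting for LT-HSCs, the long-term haematopoietic stem cells. One array carried cDNA of cia-cGAS knockout (KO) cells, which lack a circular RNA named cia-cGAS, and the other carried cDNA of wild-type (WT) cells. Both genotypes share the strain, and no treatment of the animals other than anaesthesia is labelled. Neither the number of animals behind each array nor the deleted stretch of sequence is stated in the labels. Each group is 1 array, so no difference below has a replicate check and no p-value is given.

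p53 is held at a low level in unstressed cells by the ubiquitin ligase MDM2, and damage-activated kinases release it. It then switches on genes that stop the cell cycle, repair DNA or start cell death, and it also switches on Mdm2, which closes a negative feedback loop. The level of p53 is set mainly through protein stability, which arrays of RNA do not measure. In blood stem cells p53 is known for restraining cycling and for removing damaged cells. The deleted RNA is named for cGAS, a sensor of DNA in the cytosol whose signal, relayed by STING, switches on type I interferon genes.

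A value is an RMA (robust multi-array average) intensity of 1 transcript row, each member row resting on 3 probes, and a difference is KO minus WT on the log2 scale. To tell signal from background, 1028 rows of receptor genes for smell, pheromones and taste were used, and their 95th percentile served as the detection floor of an array. It lay at 8.97 on the log2 scale (an intensity of 500.1) in KO cells and at 9.11 (552) in WT cells. A row above the floor on 1 array has only a bound: its reading is set against the floor of the array that missed it, and the result is given as "at least" that fold. Among the 9240 genes above both floors, differences had a median of -0.04, and their central 90% ran from -0.93 to 1.05. Rows of the same gene that were above both floors varied in their differences with a pooled SD of 0.37, over 2894 genes. This is a spread between probe sets of 1 gene and not between animals. The annotation gives a transcript interval for each row, and the exons its probes read were not analysed here.

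Of the markers of LT-HSCs, 6 of 11 were above the KO floor and 5 of 11 above the WT floor. Kit, Ly6a, Gata2, Mecom and Meis1 were above both floors, while Procr, Slamf1, Fgd5, Hoxb5 and Ctnnal1 were below both. Hlf was above the KO floor alone. Genes of mature marrow cells were read on both arrays as well, and their sums are given after the p53 genes. In such bulk RNA, fewer cells of a type and less RNA per cell cannot be told apart.

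The p53 genes split into those with a higher reading in KO cells, those with nearly equal readings and 1 whose rows disagreed. Mdm2, Plk2, Pmaip1 and Trp53inp1 had a positive difference in every row. Of these rows, the second of Plk2 was below both floors. The WT readings of Pmaip1 and of the third row of Trp53inp1 were below the floor. Trp53 was positive in every row as well, by 0.16 to 0.39. Trp53, Sesn1 and Ccng1 differed by less than the spread between rows in the row that stands for each gene, which is its brightest. Aen was lower in KO cells in its brightest row, and Phlda3 lay below both floors. The plot of readings by row shows these values.

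**Figure D1:**
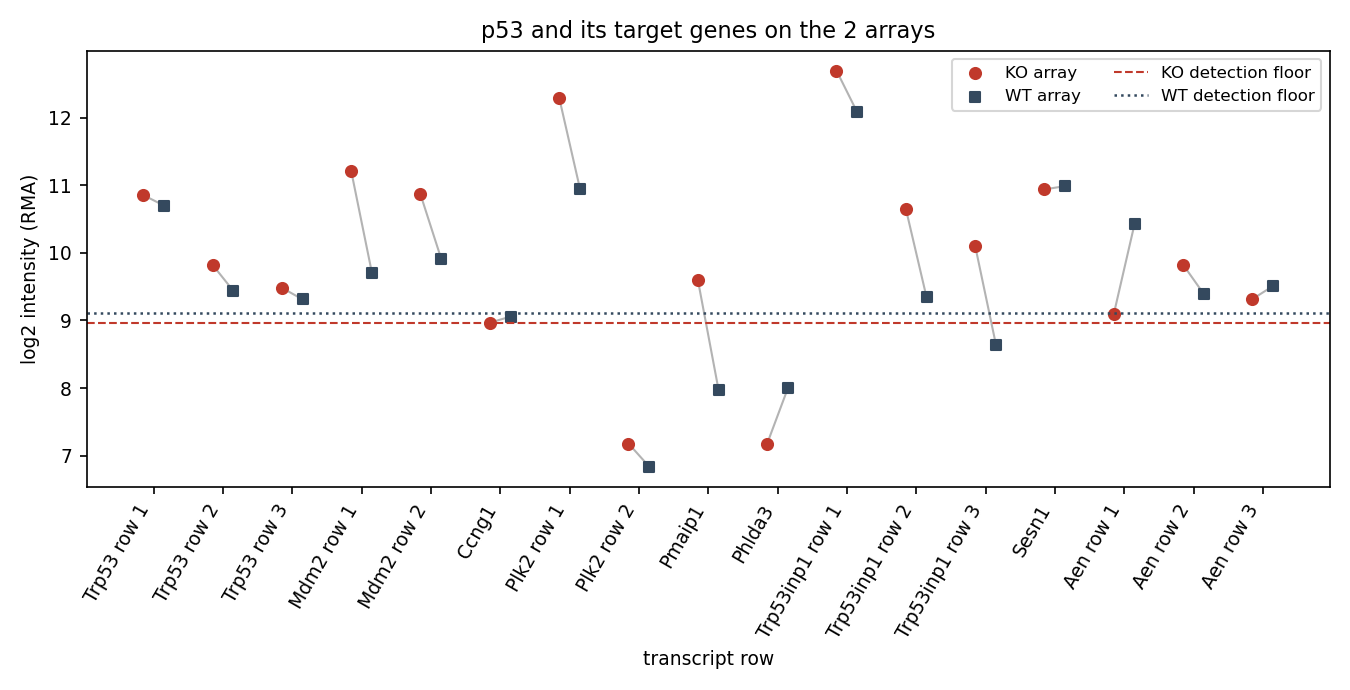
Log2 RMA intensity of the 17 transcript rows of p53 and its target genes, with the KO array (circles) left of the WT array (squares) in each row and rows of a gene numbered from the brightest down. Dashed and dotted lines are the detection floors, at 8.97 for KO and 9.11 for WT. Mdm2 and Plk2 row 1 stand apart between the arrays, whereas the points of Trp53 and Sesn1 lie close together.

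Trp53 itself was read at nearly the same level on both arrays. Its brightest row (gene ID 22059, MM9 chromosome 11 from 69393889 to 69405375) read 1853 in KO cells and 1663 in WT cells, a difference of 0.16. The second row, a shorter transcript ending at 69403323, read 906 in KO cells and 694 in WT cells, a difference of 0.39. The third row read 716 in KO cells and 635 in WT cells, a difference of 0.17. All 3 rows had the same sign, and their differences spanned 0.23. Of 624 genes with 3 rows above both floors, 565 had rows at least that far apart, with a median span of 0.56, so the rows of Trp53 were closer together than those of most such genes. Its relatives Trp63 and Trp73 were below the floor on both arrays in the brightest row.

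Mdm2, which encodes the ligase that marks p53 for degradation, had the largest difference of the members above both floors. Its brightest row (gene ID 17246, MM9 chromosome 10 from 117125948 to 117147730) read 2376 in KO cells and 833 in WT cells. This is a difference of 1.51, or 2.85-fold. A second row, from 117125960 to 117147084, read 1864 in KO cells and 961 in WT cells, a difference of 0.96 and so just under 2-fold. KO readings were the higher ones in both rows. The larger difference ranked 248th from the top of 9240 genes. Ccng1, the gene of cyclin G1, another brake on p53, sat at the floor. It read 500.3 in KO cells and 533 in WT cells, a difference of -0.09 (gene ID 12450, MM9 chromosome 11 from 40562053 to 40567494). The KO reading passed its floor by 0.0005 on the log2 scale and the WT reading missed its own by 0.05, so no fold is given for it.

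Plk2, a polo-like kinase gene that p53 induces and that acts in cell cycle control, was 2.54-fold higher in KO cells. The row of its longer transcript (gene ID 20620, MM9 chromosome 13 from 111185269 to 111191051) read 5030 in KO cells and 1977 in WT cells, a difference of 1.35 that ranked 299th from the top. A second row, placed on the upstream part of the gene up to 111188094, was below both floors, at 145 in KO cells and 114 in WT cells. The call of Plk2 therefore rests on 1 row. When that dim row was averaged in, the averaged readings differed by 0.85, and the averaged WT reading fell below its floor, which leaves a bound of 0.63.

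Among the members that act in cell death, readings of Pmaip1 and Trp53inp1 were higher in KO cells. Pmaip1 encodes NOXA, a BH3-only protein that frees the mitochondrial pathway of apoptosis. It read 778 in KO cells and 251, below the floor, in WT cells (gene ID 58801, MM9 chromosome 18 from 66618270 to 66625198). The KO reading is at least 1.41-fold above the WT floor, which falls short of 2-fold. Trp53inp1 encodes a stress-induced protein that promotes p53 activity and autophagy. Its brightest row (gene ID 60599, MM9 chromosome 4 from 11083587 to 11101524) read 6638 in KO cells and 4325 in WT cells, a difference of 0.62 or 1.53-fold. A row of a shorter transcript, from 11091457 to 11097803, read 1612 in KO cells and 648 in WT cells, a difference of 1.31 or 2.49-fold. The third row, ending at 11093547, read 1102 in KO cells and 399.9, below the floor, in WT cells, a bound of 0.998 on the log2 scale, just under 2-fold. All 3 rows of Trp53inp1 were thus higher in KO cells, by amounts that depended on the row. The 2 rows above both floors were 0.70 apart, and 293 of 1973 genes with 2 such rows were at least as far apart.

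Aen, which encodes an apoptosis-enhancing nuclease, gave rows that disagreed. The brightest (gene ID 68048, MM9 chromosome 7 from 86040812 to 86053719) read 547 in KO cells and 1379 in WT cells, a difference of -1.33 or 2.52-fold lower in KO cells. A row placed on the same interval read 907 in KO cells and 670 in WT cells, a difference of 0.44. The third row, from 86040943 to 86053262, read 637 in KO cells and 730 in WT cells, a difference of -0.20. The 3 rows of Aen were 1.77 apart, and only 6 of 624 genes with 3 rows above both floors, Aen included, had rows at least that far apart. The mean of all its rows differed by -0.36, and their median by -0.20. No direction is given for Aen as a gene.

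Phlda3 encodes a small pleckstrin homology protein that competes with the survival kinase AKT for membrane lipids. It read 145 in KO cells and 256 in WT cells, below both floors, and no fold is given (gene ID 27280, MM9 chromosome 1 from 137662759 to 137665711). Sesn1, the gene of sestrin 1, which restrains mTORC1 growth signalling under stress, read 1962 in KO cells and 2030.4 in WT cells (gene ID 140742, MM9 chromosome 10 from 41607254 to 41628230). The difference of -0.05 is smaller than the spread between rows of a gene.

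Counted by brightest row, 6 of the 9 members measured were above both floors, 2 were above the KO floor alone, and 1 was below both. Of these 6, 2 were at least 2-fold higher in KO cells (Mdm2 and Plk2), while 5.38% of all genes above both floors were. One, Aen, was at least 2-fold lower, against 4.19% of all genes. Neither Pmaip1 nor Ccng1, above the KO floor alone, had a bound of 2-fold, a bound that 10.4% of all such genes reached. Counted by row, 12 of 17 were above both floors, 3 of the 12 were at least 2-fold higher in KO cells (1 row each of Mdm2, Plk2 and Trp53inp1) and 1 was at least 2-fold lower. The shares over all such rows were 5.87% and 4.0%. Another 3 rows were above the KO floor alone, and 0 of them had a bound of 2-fold, against 11.3% of all such rows. Rows of 1 gene read transcripts of that gene in the same RNA, so the rows are not independent. Of the 12, 9 had a positive difference, against 47.6% of all rows above both floors. Of the 4 members with several rows above both floors, Trp53, Mdm2 and Trp53inp1 had a positive difference in every such row, as did 29.3% of all genes of that kind, and Aen had rows of both signs, as did 39.6%. In 0 of the 4 was every such row at least 2-fold higher, against 4.01% of those genes. The members were chosen with these values known, and so few genes do not show that the list stands apart. At a fold of 3, 0 members were called in either direction.

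**Figure D2:**
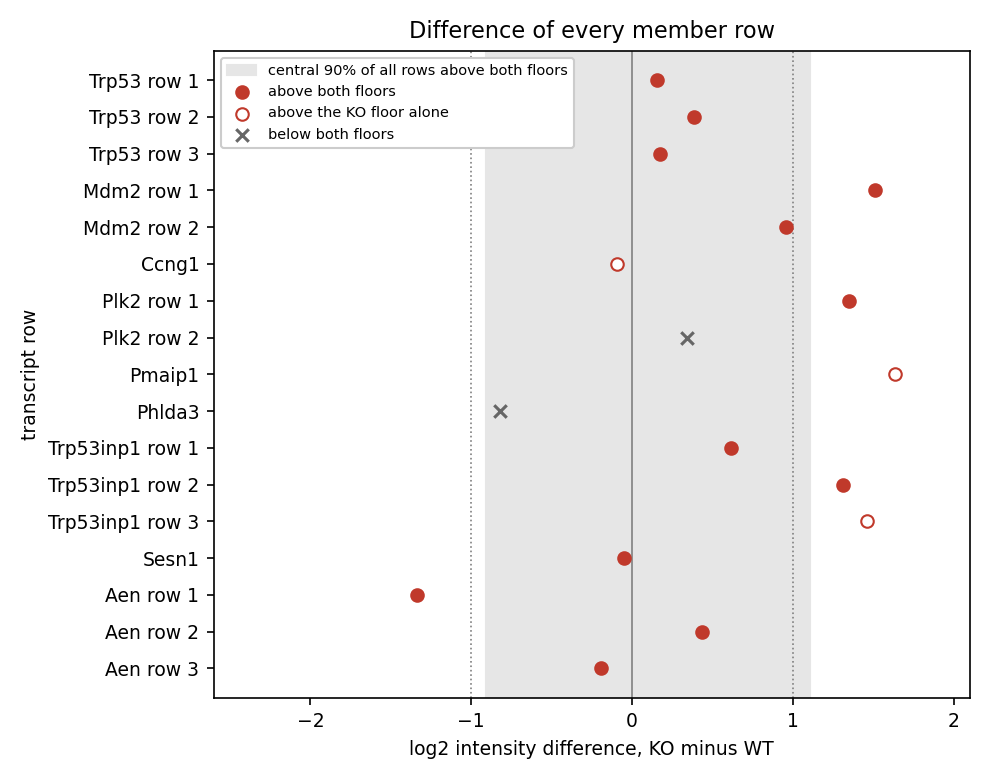
Log2 intensity difference, KO minus WT, of each member row, with filled circles for rows above both floors, open circles for rows above the KO floor alone and crosses for rows below both; open circles and crosses show the readings as they are. The grey band is the central 90% of all rows above both floors, from -0.91 to 1.11, dotted lines mark 2-fold, and Aen row 1 is the one row past 2-fold on the left.

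**Figure D3:**
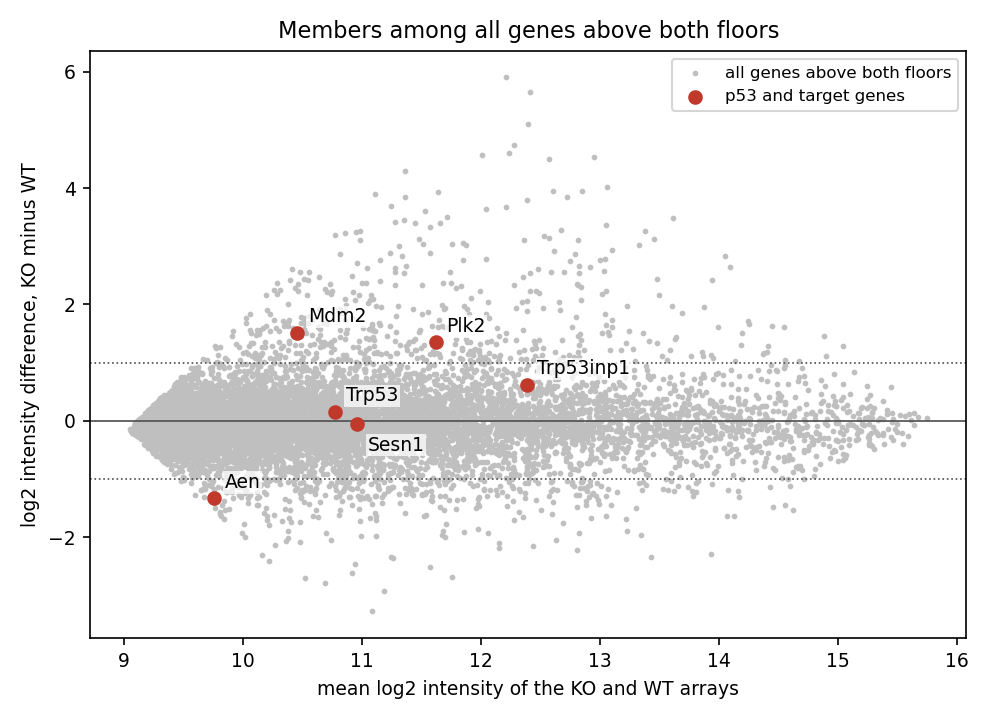
Log2 intensity difference, KO minus WT, against the mean log2 intensity of both arrays for the 9240 genes above both floors (grey), with the 6 members among them in red and dotted lines at 2-fold. Mdm2 and Plk2 lie above the upper line at 1.51 and 1.35, well below the highest genes of the plot, and Aen lies below the lower line at -1.33.

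Promoter sequence from RefSeq (GRCm38.p6) was at hand for 7 of the 10 genes, with 9 start sites. Pmaip1, Trp53inp1 and Zmat3 had none here and were not searched. Promoters of 4 genes are shown: p53 itself and, of the members with promoter sequence, those whose brightest rows differed most. Each line gives the 250 bases before a start site, 5′ to 3′ on the strand of the gene. Capitals mark p53 half-sites, pairs of p53 cores, and the interferon response core, a pair of GAAA runs with 2 bases of any kind between. The windows are chr11:69580109-69580358 (plus strand) for Trp53, chr10:117710759-117711008 (minus strand) for Mdm2, chr13:110394794-110395043 (plus strand) for Plk2, and chr7:78895808-78896057 (plus strand) for the downstream of the 2 start sites of Aen.
Trp53: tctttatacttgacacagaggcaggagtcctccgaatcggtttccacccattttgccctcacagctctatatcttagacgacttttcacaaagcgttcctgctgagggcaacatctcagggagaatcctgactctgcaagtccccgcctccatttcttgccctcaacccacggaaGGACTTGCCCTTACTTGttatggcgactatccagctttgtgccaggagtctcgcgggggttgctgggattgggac
Mdm2: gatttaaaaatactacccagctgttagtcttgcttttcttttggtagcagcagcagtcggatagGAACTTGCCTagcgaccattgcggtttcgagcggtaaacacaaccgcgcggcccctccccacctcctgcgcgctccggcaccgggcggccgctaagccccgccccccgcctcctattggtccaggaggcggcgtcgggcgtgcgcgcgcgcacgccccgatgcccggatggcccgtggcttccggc
Plk2: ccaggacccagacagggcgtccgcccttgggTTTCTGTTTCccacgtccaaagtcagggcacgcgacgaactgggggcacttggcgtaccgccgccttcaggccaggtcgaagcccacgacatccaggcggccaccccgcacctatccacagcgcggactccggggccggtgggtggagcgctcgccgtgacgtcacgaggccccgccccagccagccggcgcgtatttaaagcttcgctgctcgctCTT
Aen: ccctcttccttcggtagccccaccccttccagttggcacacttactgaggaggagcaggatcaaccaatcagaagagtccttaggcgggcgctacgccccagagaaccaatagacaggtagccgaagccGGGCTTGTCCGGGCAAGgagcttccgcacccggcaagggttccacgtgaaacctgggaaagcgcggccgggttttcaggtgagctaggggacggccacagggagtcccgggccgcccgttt

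p53 binds as a tetramer to paired half-sites, each with a core of C, A or T, A or T, and G. Windows from 250 bases before to 50 bases after each start were searched on both strands. The p53 half-site consensus was found in 6 of 9 member windows, those of Trp53, Mdm2, Ccng1, both of Aen and 1 of Sesn1, against 8.36% of all 32851 windows. A pair of cores 6 bases apart was found in 4 windows, those of Trp53, Plk2 and both of Aen, against 7.22% of all windows, and it overlapped the half-site in Trp53 and Aen. Both windows of Aen overlap and hold the same site. The members were chosen as known p53 targets, so these shares are a description. The strict pair, both cores CATG with 6 bases of any kind between, was found in 0 of 9, against 0.712% of all. In Trp53 the half-site began at position -75 from the start, in Mdm2 at -186 and, from its downstream start, in Aen at -121. In Plk2 the pair began at -3, so that only its first letters lie in the printed window. The interferon response core was found in Plk2 alone, at -219 on the opposite strand, against 3.44% of all windows. A match describes letters and shows no binding. Members with a p53 match were found among those higher in KO cells (Mdm2, Plk2) and among those with nearly equal readings (Trp53, Sesn1, Ccng1). Aen, whose rows disagreed, had a match as well. The best known p53 sites of Mdm2 lie within its first intron, outside this window.

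Other p53 targets were read in 4 lists by role, and of 43 measured, 24 were above both floors. Of these 24, 3 (12.5%) were at least 2-fold higher in KO cells, against 5.38% of all genes above both floors, and 1 (4.17%) was at least 2-fold lower, against 4.19%. Over the 29 above either floor the median difference was -0.05, beside -0.02 over all 10859 such genes. All 4 genes past 2-fold came from the apoptosis list. The death receptor gene Fas read 14163 in KO cells and 2313 in WT cells, 6.12-fold higher, and Casp1, the inflammatory caspase, read 15011 in KO cells and 2542 in WT cells, 5.91-fold higher. Both are also known as interferon-induced genes. Apaf1, which encodes the scaffold of the apoptosome, read 1771 in KO cells and 739 in WT cells, 2.40-fold higher, with differences of 1.09 and 1.26 in its rows above both floors. Siva1, a proapoptotic gene, read 548 in KO cells and 1217 in WT cells, 2.22-fold lower, its other row differing by -0.49.

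Bax and Cdkn1a, other well known effectors of p53, differed by less than 2-fold. Bax, the pore-forming executioner of mitochondrial apoptosis, read 1832 in KO cells and 1906 in WT cells, a difference of -0.06. Cdkn1a, which encodes the cell cycle inhibitor p21, read 2635 in KO cells and 1684 in WT cells, a difference of 0.65 from the 1 of its 3 rows above both floors. Bbc3 was not analysed here. Among 8 genes of cell cycle arrest, 6 of DNA repair and 16 of metabolism and stress, 4, 4 and 6 were above both floors. Of those above both floors, 0 reached 2-fold in either direction. The shares over all genes above both floors were 5.38% higher and 4.19% lower. Median differences of the 3 lists were 0.09, -0.21 and -0.06 over genes above either floor. Of 13 cell division genes that p21 is known to lower through the DREAM complex, 7 were above both floors and 6 below both. All 7 had a negative difference, from -0.78 for Top2a to -0.21 for Aurka, and 0 reached 2-fold. Over all genes above both floors, 53.6% had a negative difference. The part of p21, and of other marrow cells, in the readings of these cell division genes was not tested.

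Genes that act on p53 were read as well. Of 7 negative regulators, which include the members Mdm2 and Ccng1, 6 were above both floors. Mdm2, already counted above, was the 1 at least 2-fold higher in KO cells, against 5.38% of all genes above both floors. Usp7 was the 1 at least 2-fold lower, against 4.19%. Usp7, a deubiquitinase of both MDM2 and p53, read 3055 in KO cells and 7492 in WT cells, 2.45-fold lower from its brightest row, while its other row above both floors differed by -0.05. Mdm4, which binds and silences p53, differed by -0.38 from its brightest row, with rows above both floors from -0.38 to 0.30. Ppm1d, the WIP1 phosphatase gene, differed by 0.26. Of 11 upstream kinases and cofactors, 6 were above both floors, and 0 of these reached 2-fold in the brightest row. The shares over all genes above both floors were 5.38% higher and 4.19% lower. The 7 above either floor had a median of 0.23. Hipk2 differed by 0.37 from its brightest row, while its other row, also above both floors, differed by -1.16. Chek2 differed by 0.18, and Atm was below both floors. The plot of pathway genes by role shows these lists.

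**Figure D4:**
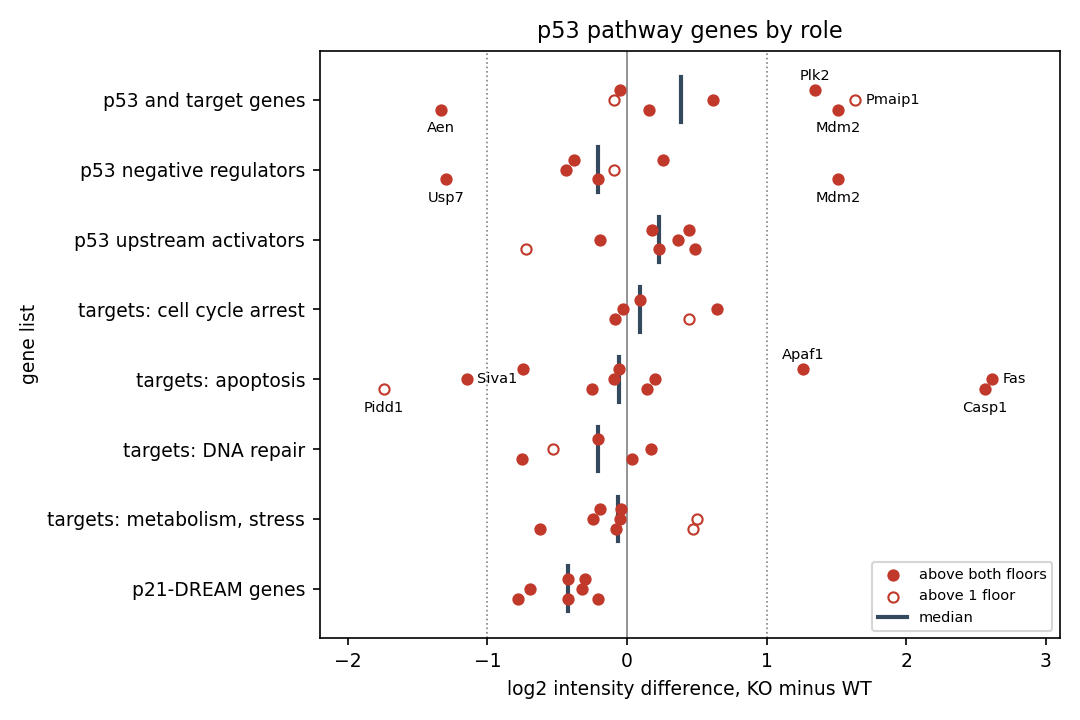
Log2 intensity difference, KO minus WT, of p53 pathway genes above at least 1 floor, by role, with filled points for genes above both floors, open points for genes above 1 floor (readings as they are, not bounds) and bars for list medians. Genes whose readings differ by 1 or more in size are named, and 1 list, the other targets of apoptosis, holds Fas, Casp1 and Apaf1 on the right and Siva1 on the left, beside Pidd1, whose KO reading was below the floor.

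Interferon-stimulated genes and markers of other marrow cells also differed between the arrays. Of 7 interferon-linked genes, 5 were above both floors, and 4 of these were at least 2-fold higher in KO cells (Cxcl10, Ifit1, Isg15 and Pml). The share over all genes above both floors was 5.38%. Irf9 differed by 0.46, and Tlr3, above the KO floor alone in its brightest row, was at least 1.37-fold higher. The brightest row of Irf7, above the KO floor alone, was at least 7.63-fold higher, while its other row, above both floors, differed by 1.16. Pml, whose nuclear bodies take part in p53 activation, read 2183 in KO cells and 881 in WT cells, 2.48-fold higher, while its other row was below both floors. Summed intensities of 12 neutrophil markers were 242386 in KO cells and 179777 in WT cells, with Cebpe below both floors. S100a8, at 48288 in KO cells and 26987 in WT cells, added more to this gap than any other marker. Of the 11 above both floors, 10 had a positive difference, beside 4286 of all 9240 genes above both floors. The highest, Itgam (1.47) and Lcn2 (1.04), were the 2 at least 2-fold higher in KO cells, against 5.38% of all such genes. S100a9 (0.02) was nearly equal between the arrays, and Mpo went the other way (-0.41). For 10 monocyte and macrophage markers the sums were 54072 in KO cells and 29475 in WT cells, and all 10 were above the KO floor. Without Ctss, which read 31733 in KO cells and 11097 in WT cells, they were 22339 in KO cells and 18378 in WT cells, and 4 of the 9 above both floors had a negative difference (C1qa, C1qb, Cd14 and Cd68). The sums of 10 B lineage markers were 3603 in KO cells and 17626 in WT cells. Of these markers, 4 were above the KO floor and 8 above the WT floor, and Igll1 was among the 2 below both. Of the 4 above both floors, 3 were at least 2-fold lower in KO cells, against 4.19% of all such genes. These were Ebf1 (-2.78), Dntt (-2.31) and Cd79b (-1.90). The median over the 8 B lineage markers above either floor was -2.70. For 11 erythroid markers the sums were 86727 in KO cells and 109920 in WT cells, most of it from the globin genes Hba-a1 and Hbb-b1, and without these 2 they were 11394 in KO cells and 23573 in WT cells. All 8 erythroid markers above both floors had a negative difference, against 53.6% of all genes above both floors. At least 2-fold lower in KO cells were 3 of them, Ank1 (-2.07), Slc4a1 (-1.56) and Tfrc (-1.13), against 4.19% of all genes above both floors. Sptb, above the WT floor alone in its brightest row, had a bound of -1.78, and the median over the 9 above either floor was -0.88. Sums of 10 T and NK markers were 6001 in KO cells and 6148 in WT cells. The part of these cells, and of the interferon-linked genes, in the readings of Mdm2, Plk2, Pmaip1, Trp53inp1 and Aen was not tested.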

How the data were processed

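The authors deposited linear RMA intensities, 1 value per transcript row and array, with RMA named in the submitters' processing notes without a version and transcripts placed on MM9 per the file headers. No source used here says which arrays were normalized together. RMA normally removes background, makes array distributions equal and then merges the probes of a row, so each difference is relative to other genes. Groups were taken from the genotype label.

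Intensities were put on the log2 scale with Python 3.11.15 and pandas 2.3.3, with no further normalization. Rows were matched to members by the gene name in the annotation. For other genes, symbols were updated by gene ID with a RefSeq table (GRCm38.p6), and a gene was read from its brightest row, by the mean over both arrays. A call is a difference of 1 or more in size on the log2 scale. With 1 array per group no test was run, and precision is limited by that number. The code was tested on simulated data.

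The members and gene lists were chosen with earlier results of these data known. Named are all members, other pathway genes at 2-fold or more, a set of anchor genes (Cdkn1a, Bax, Fas and others) and the outermost markers. Top2a, Aurka, Ctss, the globins and other genes named beside counts were picked with their values in view. A few genes of the interferon and cell type lists are not reported here and are left out of the counts and sums. The alternatives tried were 3 other floors, the mean of all rows, loess centring (span 0.3, statsmodels 0.14.6), the series-wide table, an offset of 100 and other folds. For the list medians, a mean in place of the median and readings under the floor set to it were also tried. The median of rows was added after seeing the data.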

Additional observations from a re-analysis of the deposited data

How the results depend on the processing

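The count of members at least 2-fold higher in KO cells was 2 (Mdm2 and Plk2) and ran from 2 to 3 under all alternatives except a fold of 3, where it was 0. With all rows of a gene averaged it was also 2, but of Mdm2 (1.23) and Trp53inp1 (1.13), while the averaged WT reading of Plk2 was below its floor, for a bound of 0.63 beside averaged readings that differed by 0.85. The count at least 2-fold lower, 1 (Aen), was 0 with the floor at the 99th percentile of receptor rows, with rows averaged, with the median of rows and at a fold of 3. Differences of Aen ran from -1.33 to -0.20 over its alternatives, those of Mdm2 from 1.23 to 1.53, of Trp53 from 0.15 to 0.24 and of Sesn1 from -0.05 to -0.03. With the 99th percentile floor 1 reading of Mdm2 and of Aen fell below it, which left bounds of 1.03 and -0.32. The bound of Pmaip1, set by the WT floor, ran from 0.43 to 1.51, and with no floor its readings differed by 1.63. Over all genes above both floors, 497 were higher and 387 lower by 2-fold or more, and these counts were 291 and 241 with the 99th percentile floor and 1411 and 1435 with no floor. They were 1057 and 1154 at a fold of 1.5, and 221 and 72 at a fold of 3. With rows averaged, 199 were lower. Median differences of the pathway lists moved by less than 0.37 under every alternative run. That figure is the spread between rows of 1 gene and not a spread of list medians. Values of the arrest, apoptosis and DNA repair lists, near 0, changed sign under some. Apoptosis went from -0.06 to 0.25 with a mean in place of the median, and DNA repair from -0.21 to 0.04 with the 99th percentile floor. The arrest list went from 0.09 to -0.03 with readings under the floor set to it. Loess centring shifted rows by -0.07 to 0.03. No paired analysis was possible because each group has 1 array, and leaving out an array was not possible for the same reason. Low signal limits Ccng1, Phlda3, the second row of Plk2 and the WT readings of Pmaip1.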
